A study of Homo sapiens with 9 samples.

Results

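Open chromatin was examined around 8 genes that mark or drive the change of epithelial cells towards a mesenchymal state: the transcription factor genes SNAI1, SNAI2, TWIST1, ZEB1 and ZEB2, and the effector genes VIM, CDH2 and FN1. ATAC-seq, in which the transposase Tn5 inserts adapters into accessible DNA, had been performed on 9 libraries of VCaP, a human prostate cancer line, and of its enzalutamide-resistant derivative VCaP16. Enzalutamide is an antagonist of the androgen receptor. All cells carried the genotype label WT and were grown in DMEM with serum. The 3 VCaP_DMSO libraries came from VCaP cells given the solvent dimethyl sulfoxide, the 3 VCaP_ENZ libraries from VCaP cells exposed to 10 µM enzalutamide for 96 h, and the 3 VCaP16 libraries from the resistant line kept in 16 µM of the drug. No VCaP16 library was made without drug, so line and drug cannot be told apart in it, and the drug groups differ in dose and in length of exposure. Whether VCaP16 is a single clone, and whether replicates were separate cultures, the labels do not say. The p-values therefore measure the spread between these libraries, which may be technical.

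Peaks of all 9 lists were merged where they shared 1 bp or more, and a library called a merged region where it had a peak in it. A region belonged to a gene if it overlapped a fixed hg19 window around that gene. This gave 52 regions out of 94773 in the series, and 37 of the 52 were among the 66108 consensus regions, meaning that 2 or 3 libraries of the same group called them. That is 71.2% of the regions, against 69.8% of all merged regions. Within a window, regions are numbered by rising coordinate. No hg19 annotation was used, so a region is placed by its coordinates and is not assigned to an exon, intron or promoter, and the labelled cell type was not checked against marker genes. A window also reaches towards neighbouring genes. In the RefSeq order of protein-coding genes, TRDMT1 and ST8SIA6 flank VIM, RNF114 and PEDS1-UBE2V1 flank SNAI1, and HDAC9 and FERD3L flank TWIST1. QTMAN and ACVR2A flank ZEB2, and ATIC and MREG flank FN1. A region in one of these windows may therefore lie at a neighbour. The labels do not say whether the bulk or the single-cell preparation they describe gave the lists, which were treated as bulk. In bulk lists an open region in fewer cells and a less open region in every cell cannot be told apart.

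In the epithelial-mesenchymal transition, cells loosen their junctions and gain motility. The Snail factors (SNAI1 and SNAI2) and the ZEB factors are zinc finger repressors that bind E-boxes and silence the E-cadherin gene, and TWIST1 is a basic helix-loop-helix factor that also acts through E-boxes. Vimentin (VIM) is an intermediate filament protein, N-cadherin (CDH2) replaces E-cadherin at the surface of such cells, and fibronectin (FN1) is a protein of the extracellular matrix. In prostate cancer this programme has been studied in connection with invasion and with loss of dependence on the androgen receptor.

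Because the ZEB and Snail factors recognise the E-box CAGGTG, the RefSeq promoters of the 8 genes (GRCh38.p14, 250 bases before to 50 after each start) were searched for it on both strands. The table held 12 promoters of 5 of the genes, and none was matched for SNAI1, SNAI2 and TWIST1. CAGGTG or its complement CACCTG was in 2 of the 12, both of ZEB1, against 20.6% of all 35116 promoters. The ZEB1 promoter with 3 matches, at chr10:31318966-31319265 on the plus strand, is printed with the E-boxes in capitals, as the one of the 12 with the most matches. The share of the 12 is no higher than that of all promoters, and 5 of the 7 ZEB1 promoters had no match. The FN1 promoter, at chr2:215436019-215436318 on the minus strand, is printed because it alone among the 12 held TGACGTCA, the cyclic AMP response element, which reads alike on both strands, occurs in 1.85% of all promoters and is in capitals. These coordinates are of GRCh38 and cannot be set against the hg19 regions, so whether a peak covers either sequence was not tested.
ZEB1: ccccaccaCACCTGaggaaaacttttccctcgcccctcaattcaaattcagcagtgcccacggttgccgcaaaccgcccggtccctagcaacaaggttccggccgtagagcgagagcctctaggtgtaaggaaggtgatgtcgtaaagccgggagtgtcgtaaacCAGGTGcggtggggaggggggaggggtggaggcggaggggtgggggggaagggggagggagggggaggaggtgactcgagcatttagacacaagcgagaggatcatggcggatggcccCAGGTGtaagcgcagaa
FN1: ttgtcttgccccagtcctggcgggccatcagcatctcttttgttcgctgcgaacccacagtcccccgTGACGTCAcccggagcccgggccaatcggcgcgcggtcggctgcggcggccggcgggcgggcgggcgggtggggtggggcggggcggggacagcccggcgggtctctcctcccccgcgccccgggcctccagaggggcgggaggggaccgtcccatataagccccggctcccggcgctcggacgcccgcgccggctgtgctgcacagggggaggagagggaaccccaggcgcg

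The 52 regions were spread unevenly over the 8 genes. CDH2 had 11 regions in a window of 330 kb, ZEB2 had 9 in 240 kb, SNAI2 had 8 in 100 kb, SNAI1 and FN1 had 7 each in 110 and 180 kb, and VIM and ZEB1 had 4 each in 110 and 310 kb. TWIST1 had 2 in 110 kb. Per 100 kb the windows thus held from 1.29 regions (ZEB1) to 8.0 regions (SNAI2). Of the 52, 19 (36.5%) were called in all 9 libraries and 11 (21.2%) in a single one, close to the 34.9% and 22.6% of all merged regions. Among the 37 consensus regions the share called in all 9 libraries was 51.4%, against 50% in the genome. The 19 constant regions had a median width of 839 bp, against 838 bp for all regions called in every library. The score is the authors' own measure of a peak, read here as −log10 of its p or q, and its position in a list runs from 0% at the top to 100% at the bottom. The median position was 45.5% for the 19 regions and 30.2% for all 33033 regions called in every library.

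**Figure D1:**
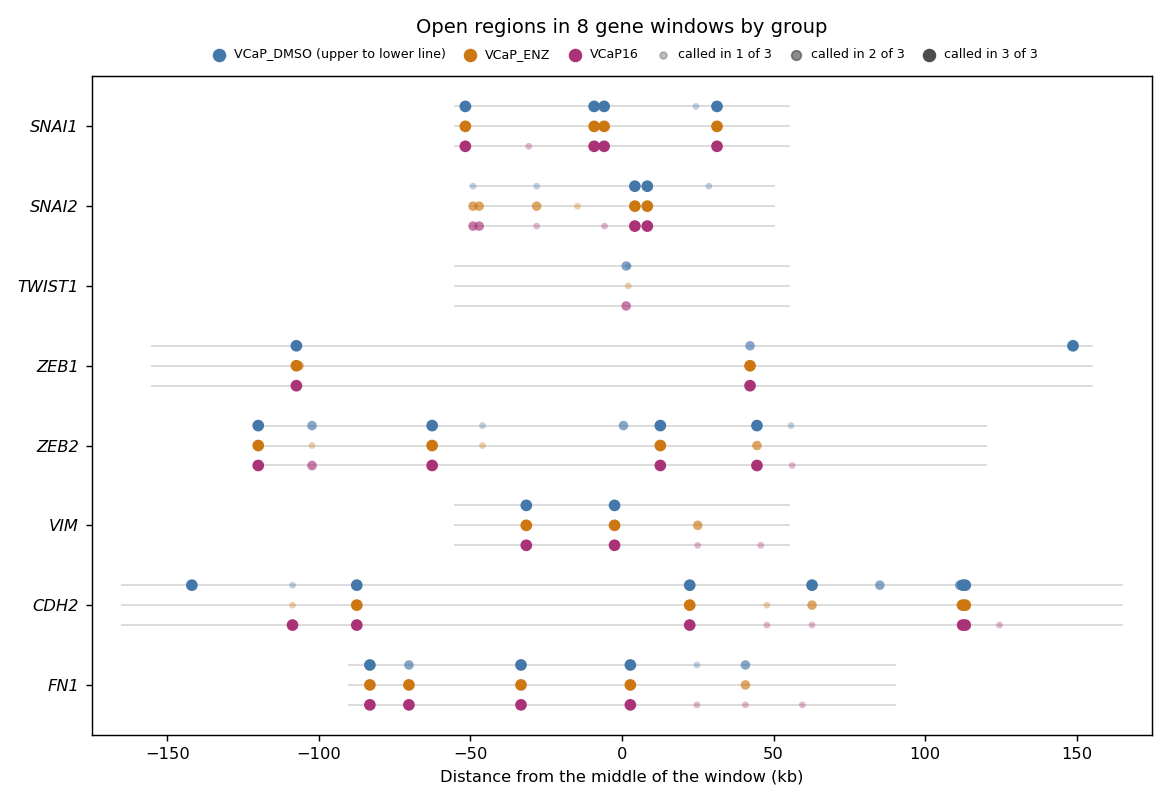
Regions of the 8 windows, placed by distance from the middle of each window in kb, with 1 line per group in each window (VCaP_DMSO above, VCaP_ENZ in the middle, VCaP16 below). Larger and darker points stand for calls in more of the 3 libraries. The 19 regions called in all 9 libraries stand as full points on every line, and the 2 full points with nothing beneath them are ZEB1 region 4 and CDH2 region 1.

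The libraries were compared by how many regions of each window they called. No window passed the test over the 3 groups, and none passed that of VCaP16 against the 6 VCaP libraries, at the threshold of 0.05. CDH2 came nearest among the 3 groups. Its window had 9, 6 and 8 called regions in VCaP_DMSO replicates 1 to 3, 5, 7 and 5 in VCaP_ENZ and 6, 5 and 7 in VCaP16, and the groups overlapped (two-sided exact permutation p = 0.196 over 280 splits). ZEB1 came nearest for VCaP16. Its window had 3, 4 and 2 regions in VCaP_DMSO, 3, 3 and 2 in VCaP_ENZ and 2 in each VCaP16 library. The VCaP16 mean was 2.0 ± 0 against 2.83 ± 0.753 in the 6 VCaP libraries (SD, n = 3 and 6), and the exact permutation test over 84 splits gave p = 0.155. Across the 8 windows these p-values ran from 0.196 to 1.0 for the 3 groups and from 0.155 to 1.0 for VCaP16 against VCaP. Pairs of groups gave exact permutation p-values of 0.2 or more, where 3 against 3 libraries cannot go below 0.1. In all 40 such comparisons were made, and the p-values are not adjusted. Divided by list length, ZEB1 passed the threshold, with a difference of VCaP16 from VCaP of -0.178 regions per 10000 peaks (exact permutation p = 0.0476). So did ZEB2 for the 3 groups with lists of equal length, where the highest and lowest group means were 2.33 regions apart (exact permutation p = 0.0357). These were the only 2 below 0.05 among 256 window tests under other settings, also unadjusted.

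**Figure D2:**
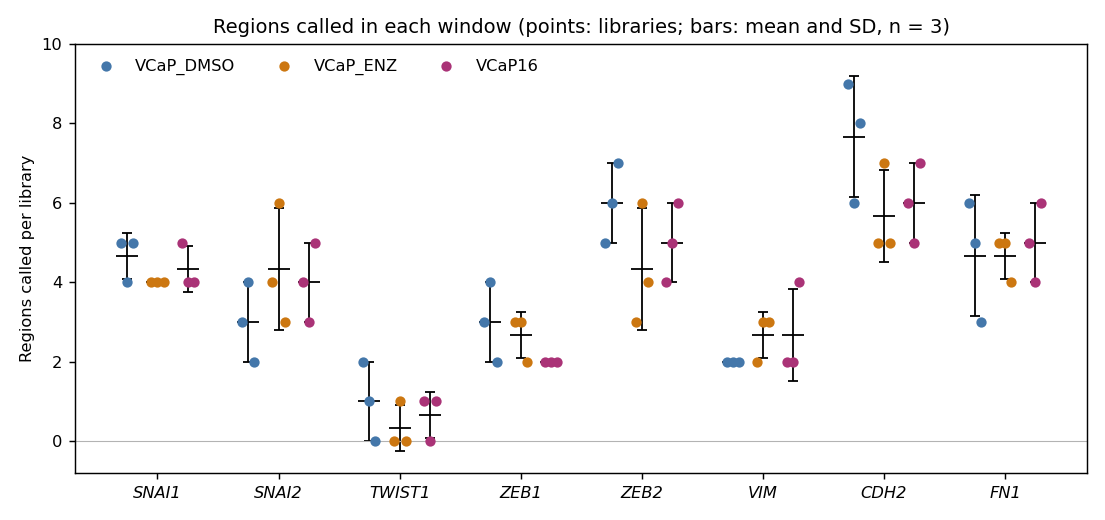
Number of regions called per library in each window, with 1 point per library and the mean and SD of each group of 3. Groups overlap in every window, and the 3 VCaP16 points of ZEB1 all lie at 2.

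Over the 8 windows together, 35, 32 and 29 of the 52 regions were called in VCaP_DMSO replicates 1 to 3, 26, 35 and 25 in those of VCaP_ENZ, and 29, 25 and 35 in those of VCaP16. The whole lists held 57677, 54757 and 53799 peaks, 54033, 61744 and 53646 peaks, and 57894, 57315 and 68921 peaks in the same order. In each of the 3 groups the longest list also called the most member regions. Relative to list length, VCaP_DMSO had 5.77 ± 0.345 member regions per 10000 peaks, VCaP_ENZ had 5.05 ± 0.544 and VCaP16 had 4.82 ± 0.395 (SD, n = 3 for each group). By this measure the VCaP_DMSO libraries (5.39 to 6.07) lay above all VCaP16 libraries (4.36 to 5.08), while VCaP_ENZ overlapped both. The undivided counts overlapped between all groups. The VCaP16 lists were longer, with a mean of 61377 peaks against 55411 in VCaP_DMSO, and the measure was not taken for other windows. No test was made of this sum over chosen genes, and the depth of the libraries is unknown.

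Single regions were then compared by their calls. In the 8 windows, 2 of 37 consensus regions, ZEB1 region 4 and CDH2 region 1, had a peak in each VCaP_DMSO library and no peak in the 6 libraries given enzalutamide. The same 2 regions make up the count when either drug group alone is set against the solvent. Over the genome, 0.23% of the consensus regions had this pattern, 0.799% were called in every VCaP_DMSO and no VCaP_ENZ library, and 0.762% in every VCaP_DMSO and no VCaP16 library. No member region was called in every library of a drug group and in no VCaP_DMSO library, where the genome had 0.936% for VCaP_ENZ, 2.33% for VCaP16 and 0.324% for both drug groups together. None was called in every library of a drug group and in none of the other drug group (genome 1.62% for VCaP16 and 0.588% for VCaP_ENZ). None was called in all VCaP16 and no VCaP library or the reverse (0.787% and 0.126%). In Fisher's exact test of VCaP16 against the 6 VCaP libraries, 0 of the 37 had an unadjusted p below 0.05, against 2.33% of the genome's consensus regions. The count of 2 depends on the settings: it was 0 with a minimum score of 5, 1 with an overlap of 50%, and 4 without VCaP_DMSO replicate 2. The genome share was not recomputed under these settings, and the pattern is easier to meet with a library left out. In Fisher's test the lowest p was 0.167 (Fisher's exact test), for CDH2 region 2, and all 37 had an adjusted p of 1.0 after Benjamini-Hochberg adjustment over 66108 regions. With 3 against 6 libraries Fisher's exact test cannot go below p = 0.0119, and 0 of the 66108 regions had an adjusted p below 0.05. The adjusted values therefore cannot show whether a member region changed.

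SNAI1 encodes Snail, which represses E-cadherin early in the transition. Its window held 4 regions called in every library. The strongest was region 7, at chr20:48635939-48636726, with scores of 53.3, 38.8 and 33.6 in VCaP_DMSO replicates 1 to 3, 25.0, 38.7 and 29.8 in VCaP_ENZ and 50.7, 48.1 and 66.3 in VCaP16. Scores move with the depth of a library, so positions were compared in lists of equal length, the best 53646 peaks of each library. There region 7 stood at 9.27%, 12.3% and 14.7% from the top in VCaP_DMSO, 20.9%, 15.6% and 14.9% in VCaP_ENZ and 5.34%, 6.9% and 6.77% in VCaP16. The VCaP16 libraries ranked it above all 6 VCaP libraries, and the VCaP_ENZ libraries below the other 6, though the gap between VCaP_ENZ replicate 3 and VCaP_DMSO replicate 3 was small. In the whole lists, VCaP_ENZ replicate 2 ranked it above VCaP_DMSO replicate 3 (13.5% and 14.6%), so that order did not hold there.

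Regions 1 and 5 of SNAI1 were also ranked lowest in VCaP_ENZ, while region 4 was not. At region 1, chr20:48552809-48553799, the score was 18.8, 17.8 and 8.56 in VCaP_DMSO, 6.28, 6.96 and 4.78 in VCaP_ENZ and 10.3, 11.5 and 19.8 in VCaP16. Every VCaP_ENZ library ranked it lower than the other 6: the positions were 77.6%, 86.7% and 87.1% in VCaP_ENZ, 40.9%, 36% and 65.5% in VCaP_DMSO and 59.3%, 56.7% and 46.0% in VCaP16. At region 5, chr20:48598638-48599562, the positions were 76.5%, 66.1% and 91.9% in VCaP_ENZ, against 57.4%, 46.2% and 46.3% in VCaP_DMSO and 58.0%, 57.1% and 53.5% in VCaP16, again with no overlap. Region 4, at chr20:48595615-48595986, had scores of 4.41 to 12.3 in VCaP_ENZ and 6.8 to 9.37 in VCaP_DMSO, and the groups overlapped. Regions 2, 3 and 6 were each called in 1 library, with scores of 2.81, 5.26 and 4.83.

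SNAI2 encodes Slug, a close relative of Snail. Its window held the best-scored region of all 8 genes, region 6, at chr8:49833779-49834692. Its scores were 65.6, 57.1 and 61.4 in VCaP_DMSO, 55.4, 64.9 and 38.6 in VCaP_ENZ and 44.8, 74.6 and 72.3 in VCaP16, and it stood within the top 9.47% of every list of equal length, with overlapping groups. Region 7, at chr8:49837860-49838810, was also called in every library. It lay at 28.6%, 34.8% and 28.2% in VCaP_DMSO, 56.0%, 23.3% and 21.0% in VCaP_ENZ and 17.1%, 28.5% and 18.1% in VCaP16, where the groups overlapped and VCaP_ENZ replicate 1 stood apart. Region 2, at chr8:49782634-49783130, was called in no VCaP_DMSO library, in VCaP_ENZ replicates 1 and 2 and in VCaP16 replicates 1 and 3, with scores of 5.47 to 8.33. Regions 1 and 3 were called in 5 and 4 libraries spread over all groups, and regions 4, 5 and 8 in 1 library each.

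TWIST1 had the fewest regions of the 8 genes, though ZEB1 had fewer per 100 kb, and no TWIST1 region was called in every library. Region 1, at chr7:19156067-19156650, was called in VCaP_DMSO replicates 1 and 2 (scores 3.64 and 4.44), in no VCaP_ENZ library and in VCaP16 replicates 1 and 3 (5.71 and 5.66). Region 2, at chr7:19156886-19157255, was called in VCaP_DMSO replicate 1 (2.82) and VCaP_ENZ replicate 2 (3.48). All these scores lay in the lower part of their whole lists, at positions from 78.3% to 98.8%. The lowest score in the lists is 2.0.

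ZEB1, a repressor with zinc fingers at both ends of the protein, had 4 regions in its window. Region 1, at chr10:31607145-31607983, was called in all libraries, with scores of 15.5, 6.88 and 15.6 in VCaP_DMSO, 7.9, 11.1 and 16.3 in VCaP_ENZ and 9.54, 16.5 and 16.4 in VCaP16, so the groups overlapped. Region 2, close to it at chr10:31608154-31608639, was called in VCaP_DMSO replicate 2 (7.9), VCaP_ENZ replicates 1 and 2 (5.23 and 7.31) and no VCaP16 library. Region 3, at chr10:31757007-31757453, was called in every library but VCaP_DMSO replicate 3, with scores of 9.29 to 23.3.

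Region 4 of ZEB1, at chr10:31863554-31864015, is one of the pair called only with the solvent. Its scores were 6.78, 10.5 and 4.81 in VCaP_DMSO replicates 1 to 3, and no library given the drug had a peak there. The peaks covered 37.9%, 100% and 71.0% of the region, so replicate 1 would not call it if peaks had to cover 50% of it. It lies near the upper end of the window, 304 kb from its start. With a score of at least 5 required, the call of replicate 3 was lost.

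ZEB2, which also binds SMAD proteins, had 3 regions called in every library. Region 1, at chr2:145089269-145090689, crosses the edge of the window and had best scores of 18.2, 19.3 and 18 in VCaP_DMSO, 18.9, 34.8 and 15.5 in VCaP_ENZ and 20.1, 20.8 and 33.3 in VCaP16. Its positions were 42.3%, 33.1% and 34.0% in VCaP_DMSO and 29.4%, 30.0% and 24% in VCaP16, so VCaP16 ranked it above VCaP_DMSO in every library, and VCaP_ENZ (30.5%, 18.5% and 37.1%) overlapped both. The shape of the call differed between libraries too. A second, separate peak was called in all 3 VCaP16 libraries (scores 5.46, 5.7 and 8.97) and in VCaP_ENZ replicates 1 and 2 (8.51 and 9.5), while the other 4 libraries had a single peak. In VCaP_DMSO replicate 2 that single peak was 994 bp wide and reached over the place of both. All the second peaks lay outside the window, which starts at chr2:145090001. Region 1 was not assigned to ZEB2 or to a neighbour such as QTMAN.

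The other ZEB2 regions were weaker. Region 3, at chr2:145146833-145147867, ranked at 38.8% to 55.0% in all libraries with overlapping groups. Region 6, at chr2:145222262-145223009, had scores of 7.87, 10.6 and 10.5 in VCaP_ENZ, above the 6.16, 2.1 and 4.81 of VCaP_DMSO and the 3.78, 3.72 and 5.34 of VCaP16, but its peak fell out of the equal-length list of at least 1 library, so it was not ranked there. Region 5, at chr2:145210230-145210736, was called in VCaP_DMSO replicates 1 and 3 (5.85 and 5.74) and in no library given the drug. Region 7 was called in 8 libraries and region 2 in 5, and regions 4, 8 and 9 in 1 or 2.

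**Figure D3:**
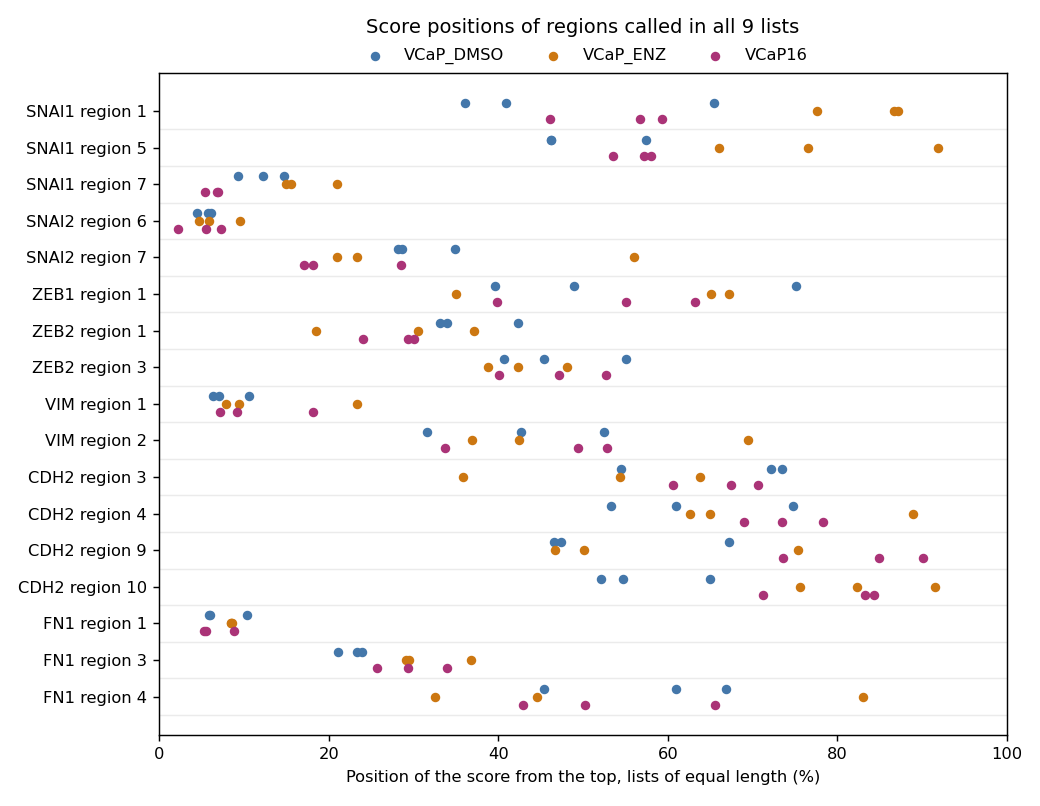
Position of the score from the top of lists of equal length, in %, for the 17 regions called in all 9 such lists, with 1 point per library. VCaP_ENZ lies to the right of the other groups at SNAI1 regions 1, 5 and 7, and VCaP16 to the left at SNAI1 region 7.

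The VIM window had a pair of regions called in every library, which were not assigned to VIM or to a neighbour such as TRDMT1. Region 1, at chr10:17242912-17243915, was among the best-scored, with 64.1, 52.2 and 40.5 in VCaP_DMSO, 39.8, 56.5 and 22.3 in VCaP_ENZ and 40.3, 47.3 and 39.7 in VCaP16. Region 2, at chr10:17272121-17272936, scored 18, 20 and 11.5 in VCaP_DMSO, 14.1, 20.8 and 7.46 in VCaP_ENZ and 12.7, 12.5 and 26.0 in VCaP16. At both regions the groups overlapped, and VCaP_ENZ replicate 3 had the lowest score. Region 3, at chr10:17299808-17300128, was called in VCaP_ENZ replicates 2 and 3 (8.59 and 3.43) and VCaP16 replicate 3 (6.27), and in no VCaP_DMSO library. Region 4, at chr10:17320700-17320878, was called in VCaP16 replicate 3 alone (2.8).

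CDH2, the gene of N-cadherin, had the most regions, and those not called in every library differed in which group called them. Region 1, at chr18:25502780-25503366, is the other region of that pair. VCaP_DMSO replicates 1 to 3 had scores of 5.85, 6.43 and 3.91 there, and the libraries given enzalutamide had no peak. Its peaks covered 81.8%, 79.0% and 63.5% of the region, so it kept the pattern under that rule, but the call in replicate 3 fell below a score of 5. Region 7, at chr18:25729935-25730180, was called in VCaP_DMSO replicates 1 and 3 (6.78 and 9.83) and in no other library. Region 6, at chr18:25707302-25708072, was called in 3 VCaP_DMSO, 2 VCaP_ENZ and 1 VCaP16 libraries, with scores of 4.02 to 9.75. Region 2, at chr18:25535970-25536595, ran the other way, with calls in all 3 VCaP16 libraries (4.72, 4.26 and 11.4) and in 1 library of each other group.

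A cluster of 3 regions stood close together in the upper part of the CDH2 window. Region 9, at chr18:25756991-25757761, had positions of 46.5%, 47.4% and 67.2% in VCaP_DMSO, 50.1%, 46.7% and 75.4% in VCaP_ENZ and 90.1%, 73.6% and 85.0% in VCaP16. VCaP16 ranked it below VCaP_DMSO in every library, and VCaP_ENZ overlapped both. In the whole lists VCaP16 replicate 3 ranked it above VCaP_DMSO replicate 3 (66.1% and 67.1%), so that order did not hold there. Region 10, at chr18:25757954-25758502, lay at 54.7%, 65% and 52.1% in VCaP_DMSO, 82.3%, 91.5% and 75.6% in VCaP_ENZ and 84.3%, 83.3% and 71.2% in VCaP16. All VCaP_DMSO libraries thus ranked it above the 6 libraries given the drug. In the whole lists VCaP16 replicate 3 ranked it above VCaP_DMSO replicate 2 (55.4% and 63.6%), so only the order above VCaP_ENZ held there. Region 8, at chr18:25756169-25756646, was called in VCaP_DMSO replicates 1 and 3 (2.18 and 2.03) and VCaP_ENZ replicate 2 (5.01). Regions 3 and 4 of CDH2 were called in every library with overlapping groups. Region 5 was called in VCaP_ENZ replicate 2 (8.59) and VCaP16 replicate 1 (11.8), and region 11 in VCaP16 replicate 3 (14.7), with no VCaP_DMSO library calling either.

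**Figure D4:**
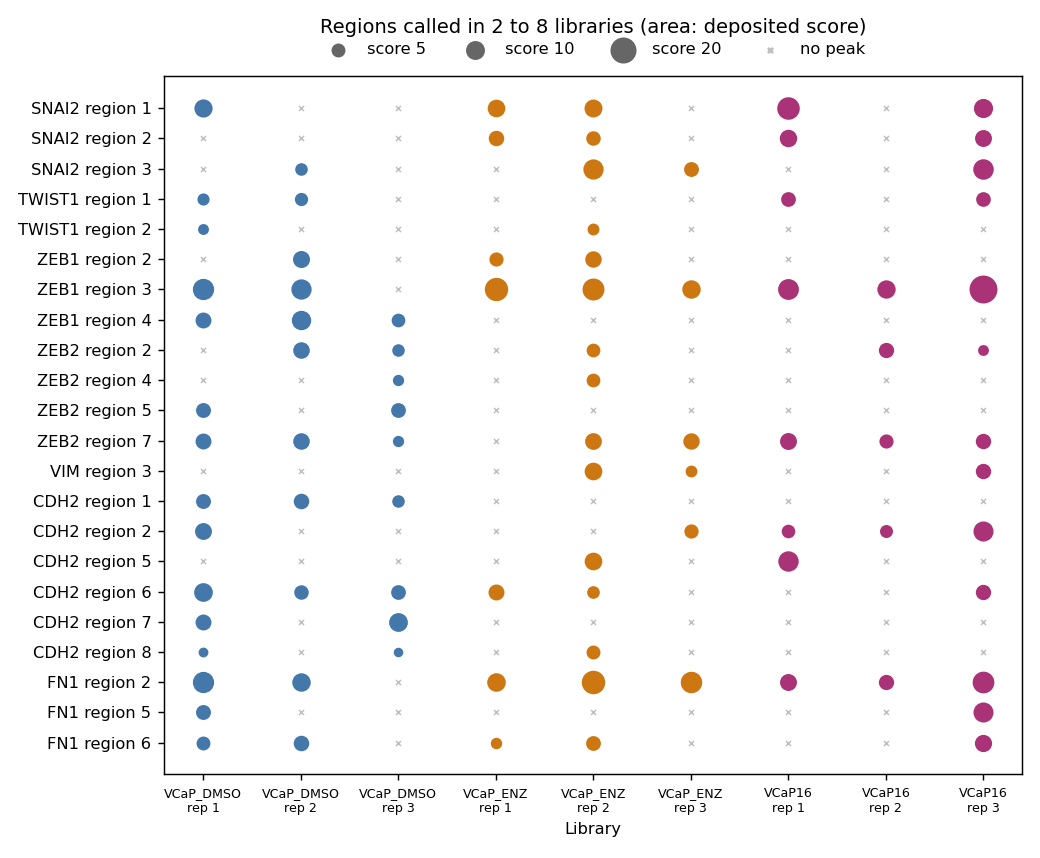
Calls in the 22 regions called in 2 to 8 libraries, with libraries on the horizontal axis, the area of a point standing for the deposited score and a cross for no peak. ZEB1 region 4 and CDH2 region 1 have points in the 3 VCaP_DMSO columns only.

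The FN1 window had 3 regions called in every library, which were not assigned to FN1 or to a neighbour such as ATIC. Region 1, at chr2:216176270-216177350, scored 66.5, 56.1 and 41.0 in VCaP_DMSO, 41.7, 54.6 and 40.6 in VCaP_ENZ and 50.2, 53.5 and 58.8 in VCaP16, and stood within the top 10.3% of every equal-length list. Region 3, at chr2:216226202-216227128, lay at 21.1%, 23.9% and 23.4% in VCaP_DMSO, 29.1%, 36.8% and 29.5% in VCaP_ENZ and 29.3%, 33.9% and 25.7% in VCaP16. The VCaP_DMSO libraries ranked it above the other 6. At region 4, chr2:216262435-216263044, the scores of 7.62 to 21.2 overlapped between groups. Region 2 was called in all libraries but VCaP_DMSO replicate 3, region 6 in 5 libraries with 1 of VCaP16 among them, region 5 in 2 and region 7 in 1.

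Of the 19 regions called in every library, 17 were in all 9 lists of equal length, and their order can be set beside that of 31859 such regions in the genome. VCaP_ENZ ranked 3 of the 17 below the other 6 libraries, all of them in the SNAI1 window (genome 1.7%), and 0 above them (2.36%). The cut to equal length left out 2 regions that were called in all 9 libraries, SNAI1 region 4 and ZEB2 region 6. In the whole lists VCaP_ENZ ranked ZEB2 region 6 above the other 6 libraries, at 67.5%, 58.4% and 54.3%. VCaP_DMSO had it at 81.5%, 99.5% and 86.6%, and VCaP16 at 92.0%, 94.3% and 84.2%. SNAI1 region 4 stood in the whole lists at 47.8%, 68.4% and 88.9% in VCaP_ENZ. VCaP_DMSO had it at 77.6%, 62.3% and 61.3%, and VCaP16 at 70.2%, 81.4% and 80.9%, so the groups overlapped. Neither region is in the counts given here. Every VCaP_DMSO library ranked 5 of the 17 above every VCaP_ENZ library, SNAI1 regions 1, 5 and 7, CDH2 region 10 and FN1 region 3 (genome 7.33%), and none had the reverse order (8.47%). Against VCaP16, the solvent libraries stood above in 3 (CDH2 regions 9 and 10 and FN1 region 3, genome 10.6%) and below in 2 (ZEB2 region 1 and SNAI1 region 7, genome 9.6%). VCaP16 ranked 3 regions above VCaP_ENZ, again the 3 of the SNAI1 window (7.86%), and 0 below (9.77%). None of these 3 was assigned to SNAI1 or to its neighbours RNF114 and PEDS1-UBE2V1. VCaP_DMSO ranked CDH2 region 10 and FN1 region 3 above all 6 libraries given the drug (2.62%) and 0 below them (2.97%), and VCaP16 ranked SNAI1 region 7 above all 6 VCaP libraries (3.53%) and 0 below them (3.85%). These comparisons share libraries, and regions of 1 window are not independent, so no test was made of the counts. Without VCaP_DMSO replicate 3 the orders of VCaP_DMSO above VCaP_ENZ, VCaP16 and all drug libraries held for 8, 7 and 5 regions. With positions in the whole lists, those above VCaP16 and above all drug libraries held for 0. An order over fewer libraries is easier to meet, and the genome shares were not recomputed. These counts therefore cannot be set against the shares given above.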

How the data were processed

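The authors deposited 1 peak list per library, giving the coordinates, name and score of every peak. No score in the deposited lists fell below 2, so scores were read as −log10 values with a limit of 0.01, either of p or of q. Read filters and any Tn5 shift are not stated in the labels. The tools named in the submitters' processing notes are MACS2 2.2.7.1, HOMER 3.12 and BWA 0.7.15-r1140, with hg19 as the build and no roles, and the labels' protocols describe bulk cells crosslinked with formaldehyde beside a single-cell preparation. The lists were treated as bulk libraries. They hold no read counts, so depth is unknown and no counting error is given.

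Peaks on chromosomes 1 to 22 and X were merged and called at 1 bp of overlap with Python 3.11.15 and scipy 1.17.1, and coordinates are written from 1. The windows, genes and lists were chosen with earlier results of these data known. Regions are described by a rule that takes, in each window, the region called in most libraries, every region with split calls, and every region where fewer than 5 exist. The remaining regions were added for completeness after their values were seen. Two-sided exact permutation tests were used for calls per window and Fisher's exact test for single regions, adjusted over all consensus regions. Scores were not tested. They were given per library and ranked, within lists cut to equal length and for some regions within the whole lists. The merging, counting and test steps were tested on simulated lists. With no hg19 annotation at hand, the planned placing of starts and of other genes of the transition was not run. The promoter search was added after seeing the data.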

Additional observations from a re-analysis of the deposited data

How the results depend on the processing

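Of 485 recomputed values, 450 showed no change of sign or of side of the threshold or, for counts, stayed within 1.5 times. Of the others, 9 changed sign, 24 counts moved by more, and 2 tests crossed the threshold of 0.05. Those 2 are ZEB1 per 10000 peaks (difference -0.178, exact permutation p = 0.0476) and ZEB2 over 3 groups with lists of equal length (2.33 regions, exact permutation p = 0.0357). The recomputed values held 256 window tests, and their p-values are not adjusted. A difference of VCaP16 from VCaP that was reported as 0, or became 0, was not counted as a change of sign. It was reported as 0 for SNAI1 and TWIST1, and ran from -0.333 to 0.833 and from -0.167 to 0.667 under other settings. The difference of VCaP16 from VCaP, reported as 0.333 regions for VIM, SNAI2 and FN1, turned to -0.333 for VIM with lists of equal length, to -0.00234 for SNAI2 and -0.0213 for FN1 per 10000 peaks, and to -0.167 for FN1 in consensus regions only. Without VCaP16 replicate 3, the longest list, it was -0.333 for VIM and -0.167 for SNAI2 and FN1. The ZEB2 difference of -0.167 turned to 0.333 without VCaP16 replicate 1 and to 0.2 without VCaP_DMSO replicate 3. With single libraries left out it ran from -0.333 to 0.667 for VIM, -0.167 to 0.833 for SNAI2 and FN1 and -0.667 to 0.333 for ZEB2.

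The 2 regions called in every VCaP_DMSO and no drug library became 0 with a minimum score of 5 and 1 with an overlap of 50%, and so did both counts against a single drug group. Without VCaP_DMSO replicate 2 they became 4, as did the count against VCaP_ENZ, and 5 against VCaP16. With single libraries left out the 3 counts ran from 2 to 4, 2 to 4 and 2 to 5. Each of the 4 counts of 0 between a drug group and VCaP_DMSO or the other drug group ran from 0 to 1. In the ranking, the orders of VCaP_DMSO above VCaP16 and above all drug libraries fell to 0 with positions in the whole list. With single libraries left out, a setting chosen after seeing the data, they ran from 3 to 7 and 2 to 5, that above VCaP_ENZ from 5 to 8, each highest without VCaP_DMSO replicate 3, and VCaP16 above all VCaP from 1 to 2. The 3 regions that VCaP_ENZ ranked below the other libraries were 2 with positions in the whole list, where SNAI1 region 7 lost the order, and 3 with each library left out. Genome shares were not recomputed for any of these settings, and leaving out a library makes each pattern or order easier to meet. The cause of these shifts was not tested beyond the construction of each setting.

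Permuting within replicate numbers (replicate block) changed no call, with exact permutation p = 0.111 for ZEB1 in VCaP16 against VCaP as its lowest. Same-numbered libraries did not deviate together more than others. Their r ran from -0.028 to 0.00788 over 9 pairs of libraries, against -0.027 to 0.0518 over 18 pairs with different numbers. Whether the numbers mark a shared batch the labels do not say, and it cannot be told from these values.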
